A study of Mus musculus with 6 samples.

Results

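The RNA levels of 7 cell adhesion genes were compared between *Hnrnpa2b1* knockout (KO) and wild-type (WT) differentiating C2C12 cells: the cadherins *Cdh2*, *Cdh4*, *Cdh11*, *Cdh13* and *Cdh15*, the cadherin-related gene *Cdhr1* and the neural cell adhesion molecule *Ncam1*. The genes were taken by symbol from 46078 genes in the deposited table of read counts, and all 7 were found there. Of these, 6 were among the 14828 genes with enough reads to be fitted, and *Cdh4* was not. The set was chosen with the KO and WT levels already known, and the near absence of *Cdhr1* RNA in WT against its presence in KO was part of the choice. The values of the 7 genes are therefore given as a description, without p-values.

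Cadherins are transmembrane proteins that bind one another between neighbouring cells through calcium-dependent extracellular repeats. The classical members carry a cytoplasmic tail that binds p120 catenin and β-catenin or plakoglobin, and α-catenin links these to actin. Myoblasts need cell contact to align and fuse: M-cadherin (*Cdh15*) marks satellite cells and myoblasts, N-cadherin (*Cdh2*) is widespread in mesoderm and neural tissue, and NCAM (*Ncam1*) is an immunoglobulin-type adhesion molecule that muscle displays during development, regeneration and denervation. *Cdh13* (T-cadherin) lacks the cytoplasmic tail and is held in the membrane by a lipid anchor, and *Cdhr1* (photoreceptor cadherin) is best known from the base of the photoreceptor outer segment, so that neither is a classical cadherin by structure.

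C2C12 cells are an immortalized mouse myoblast line that fuses into myotubes when serum is withdrawn. In both groups RNA was taken after 2 days of serum withdrawal with an insulin, transferrin and selenium supplement, from 3 libraries of the genotype hnrnpa2b1 KO (KO1 to KO3) and 3 of the genotype WT (WT1 to WT3). *Hnrnpa2b1*, which encodes an RNA-binding protein, had been targeted with CRISPR-Cas9 from a plasmid under puromycin selection, and KO and WT clones were isolated with cloning rings. The methods describe independent clones of each genotype, but neither they nor the labels state which clone gave which library, so a p-value below measures the spread between these libraries only. Counted reads ranged from 33605258 to 40558740 per library. The targeted gene *Hnrnpa2b1* itself was at 159, 195 and 249 CPM across KO1 to KO3 and 225, 229 and 252 across WT1 to WT3, overlapping between genotypes, with a log2 fold change of KO over WT of -0.23 (standard error (SE) 0.18, adjusted p = 0.381, edgeR's quasi-likelihood test). It was -0.09 without KO1, -0.41 without KO3 and -0.49 on the log2(TPM + 1) scale. This RNA level does not show whether the protein was lost. The methods report that knockout of the clones was checked at the protein level, by immunofluorescence and Western blotting. CPM relate each gene to the total reads counted in its library, after scaling between libraries with TMM factors (trimmed mean of M-values).

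The labelled cell type was checked against 11 myoblast and myotube markers, all of which passed the filter on low counts. *Myog* was read at least 41153 times in every library and *Myod1* at least 3405 times. The summed TPM (a share of the library that also allows for transcript length) of these markers were 7252, 3272 and 3396 across KO1 to KO3 and 6076, 4692 and 5584 across WT1 to WT3, so that KO1 lay above and KO2 and KO3 below the WT libraries. Single markers did not all follow this sum. *Acta1* did, with 3005, 1162 and 1239 TPM in KO and 2035, 1480.3 and 1719 TPM in WT. *Myh3* was lower in every KO library than in every WT library, at 426, 109 and 183 TPM against 515, 542 and 619 TPM. So was *Myh8*, at 32.9, 11.2 and 9.66 TPM against 67.0, 39.9 and 77.5 TPM. Neither myosin was called by edgeR (adjusted p = 0.126 and 0.0562). Of the 11 markers, *Myod1* was called higher in KO (log2 fold change 0.99, edgeR adjusted p = 0.0141) and *Myf5* lower (-1.50, adjusted p = 0.0303). The part of these differences between libraries in the values below was not tested. In bulk RNA, fewer cells of a type and less RNA per cell cannot be told apart.

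*Cdhr1* (ENSMUSG00000021803, chromosome 14, 37077850 to 37098311, minus strand, build GRCm38) is shown with the sequence ahead of its start because its fitted fold change was the largest of the 7 genes. The 250 bases before its RefSeq start site, chr14:37098348-37098597 on the minus strand of GRCm38.p6, read as follows from 5′ to 3′, with capitals for the matches to the motifs described next.
Cdhr1 promoter: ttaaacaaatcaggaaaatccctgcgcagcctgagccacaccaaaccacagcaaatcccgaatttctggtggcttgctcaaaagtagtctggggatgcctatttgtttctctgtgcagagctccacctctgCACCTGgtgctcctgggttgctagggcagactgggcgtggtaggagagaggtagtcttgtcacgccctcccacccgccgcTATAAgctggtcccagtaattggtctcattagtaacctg

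In this stretch the E-box letters CANNTG, which myogenic basic helix-loop-helix factors such as Myod1 and Myog can bind, were found once, as CACCTG at 119 bases before the start. The letters TATAA were found once, at 39 bases before the start, and did not overlap the E-box letters. The letters TAATCC, a core recognised by the photoreceptor factor Crx, had no match on either strand. Among 32851 RefSeq promoter stretches of the same length, 66.2% held CANNTG, 22.8% held TATAA and 6.25% held TAATCC on either strand. Promoter stretches were matched for 2 of the 7 genes. In that of *Cdh15*, CANNTG was found 3 times, at 236, 135 and 32 bases before the start, and neither TATAA nor TAATCC was found. A match describes letters and shows no binding.

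*Cdhr1* RNA was near the limit of counting in every WT library and well above it in every KO library. It was read 14, 16 and 16 times across WT1 to WT3 and 1291, 3482 and 2146 times in KO1 to KO3. In CPM this was 0.405, 0.488 and 0.431 in WT and 36.1, 79.7 and 52.4 in KO. All 3 KO libraries were thus far above all 3 WT libraries, and the WT values were above the level of 3 counts, taken as the floor of a library (0.0809 to 0.0914 CPM in WT). The mean was 56.1 ± 22 CPM (SD, n = 3) in KO and 0.441 ± 0.0422 CPM (SD, n = 3) in WT, a ratio of means of 127. The fitted log2 fold change of 6.98 (SE 0.37) was number 14 from the highest among the 14828 genes fitted. Within KO the libraries differed 2.21-fold, with KO2 highest and KO1 lowest, whereas the WT libraries lay within 1.20-fold. Per length, *Cdhr1* had 5.19, 12.1 and 9.37 TPM across KO1 to KO3 and 0.0659, 0.0797 and 0.0609 TPM across WT1 to WT3.

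**Figure D1:**
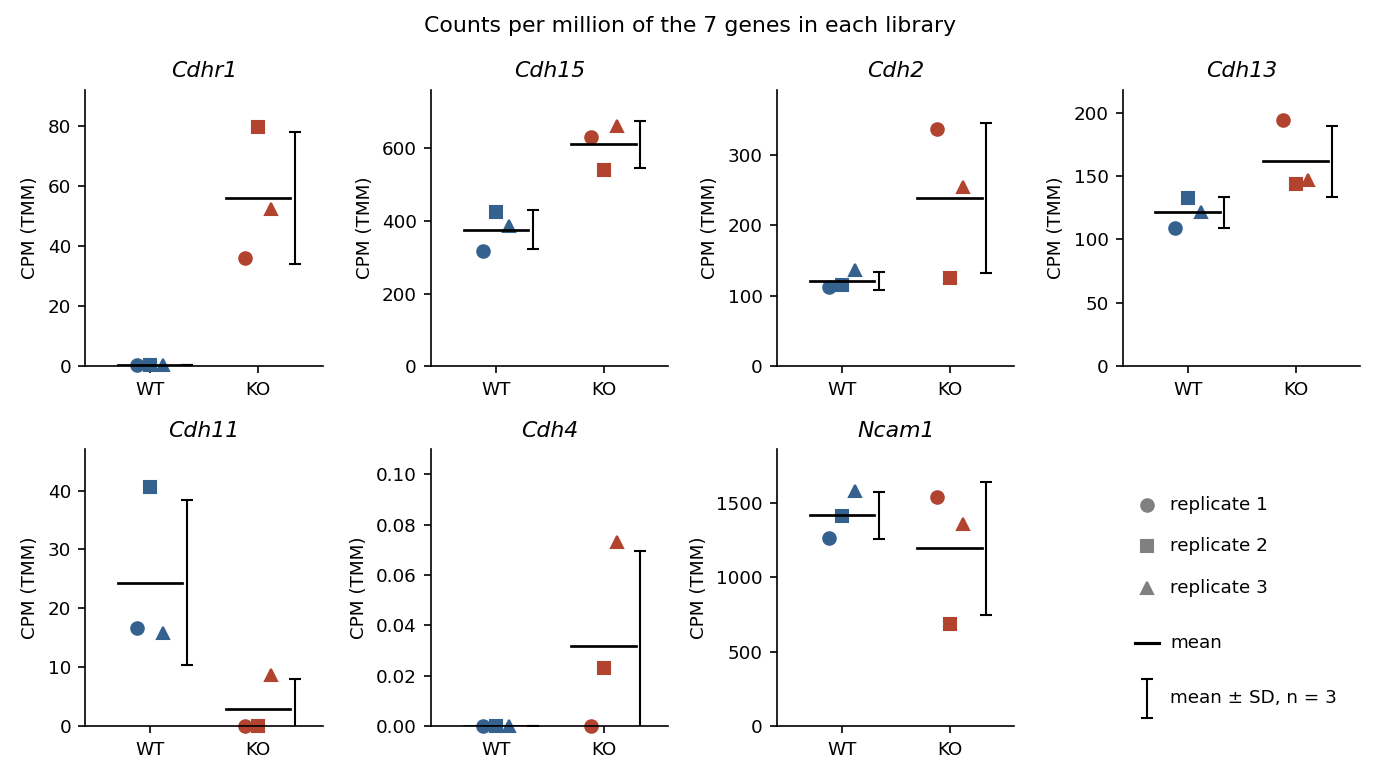
CPM of each of the 7 genes in every library, WT in blue and KO in red, with a marker shape for each replicate number, a line at the mean and a bar of ± SD (n = 3), each panel on its own linear axis from 0. *Cdhr1* sits at 0.405 to 0.488 CPM in WT and 36.1 to 79.7 CPM in KO, *Cdh15* and *Cdh13* do not overlap between genotypes, and KO2 lies apart from KO1 and KO3 for *Cdh2* and *Ncam1*.

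The genes beside *Cdhr1* were examined in the order of the chromosome. The tested gene nearest on the side of its start, *2610528A11Rik* (37102140 to 37114022, minus strand), ends 3.83 kb from *Cdhr1* and was read 312, 583 and 244 times across KO1 to KO3 and 4, 5 and 2 times across WT1 to WT3. Like *Cdhr1*, it was highest in KO2 and did not overlap between genotypes. Its log2 fold change was 6.42 (SE 0.49, adjusted p = 6.13e-04, edgeR), and the adjusted p stayed between 4.04e-28 and 0.00669 over 12 alternative settings. The nearest tested gene on the other side, *Rgr* (37037490 to 37048964, minus strand), an opsin-family gene of the retinal pigment epithelium, lies 28.9 kb away. It was read only 10, 23 and 13 times across KO1 to KO3 and 0, 1 and 4 times across WT1 to WT3. Its log2 fold change was 2.90 (SE 0.79, adjusted p = 0.0350, edgeR), and the call was lost without WT1 or WT2 and could not be fitted without KO2, without KO3 or in TPM, where it did not pass the filter (adjusted p up to 0.110 over the alternatives, as for the other such upper values below). The *Rgr* value lay between 2.35 without WT1 and 4.35 without WT3.

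Between *Rgr* and *Cdhr1*, *Lrit1* and *Lrit2* were read at most 3 times in any library and were not tested. The next tested genes outward were looked up after these values had been seen. *Ghitm*, which encodes a mitochondrial inner membrane protein, was lower in KO at 22.1 kb (log2 fold change -0.83, SE 0.19, adjusted p = 0.0216, edgeR), a call lost without any of KO2, KO3, WT1 or WT2 (adjusted p up to 0.0970). *Ccser2* at 109 kb had 111, 117 and 128 CPM in KO and 109, 115 and 112 CPM in WT (log2 fold change 0.08, SE 0.12, adjusted p = 0.630). The higher RNA in KO was therefore shared by *Cdhr1* with the adjoining *2610528A11Rik* and, at a few reads, with *Rgr*, and was not seen in *Ghitm* or *Ccser2*. Over the 55 other tested genes between 30 and 40 Mb of chromosome 14, the median log2 fold change relative to all genes was 0.05, with 8 genes called higher and 8 lower.

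**Figure D2:**
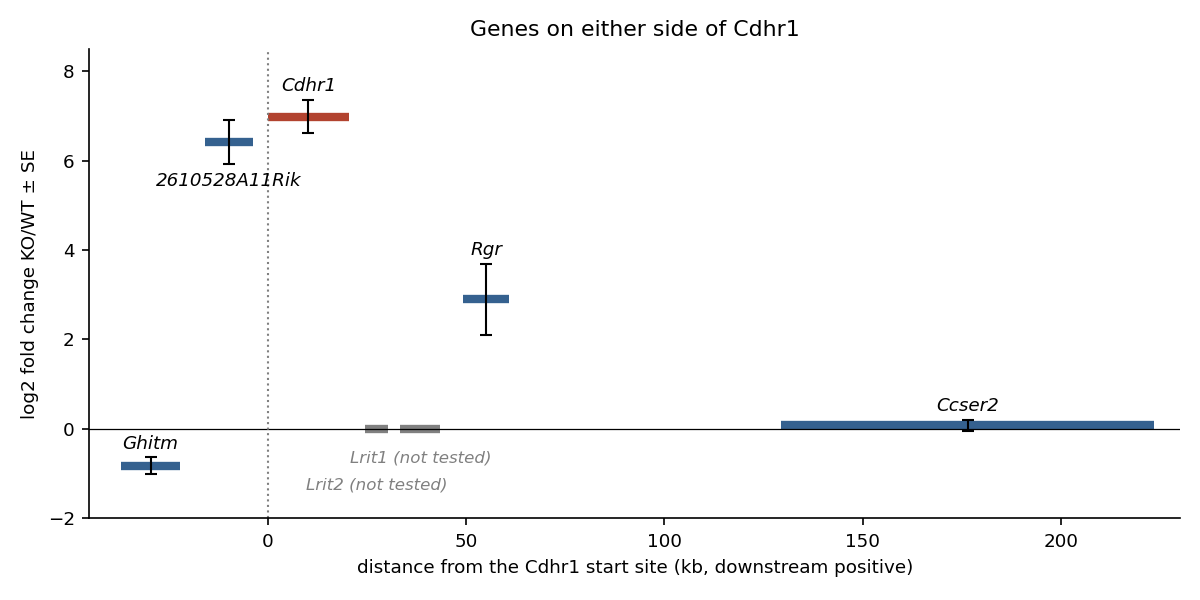
Log2 fold change of KO over WT (bars of ± SE) for the genes around *Cdhr1*, drawn over the extent of each gene as distance in kb from the *Cdhr1* start, with *Cdhr1* in red and genes that were not tested in grey at 0. *Cdhr1* (6.98) and *2610528A11Rik* (6.42) stand together, *Rgr* is at 2.90, and *Ghitm* (-0.83) and *Ccser2* (0.08) flank them.

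Markers of photoreceptors, the cells for which *Cdhr1* is best known, were near zero in both genotypes. Of 12 such genes, 5 (*Crx*, *Nrl*, *Nr2e3*, *Rcvrn* and *Gnat1*) were read at most 3 times in every library. The 4 that passed the filter (*Rom1*, *Pde6b*, *Sag* and *Opn1sw*) were read at most 49 times each and none was called (lowest adjusted p = 0.142, edgeR). Their list summed to 0.534 to 1.06 TPM in KO and 0.634 to 1.07 TPM in WT. *Cdhr1* at 5.19 to 12.1 TPM in KO was thus above the whole photoreceptor list. Of 6 neuronal markers, *Tubb3* (log2 fold change 2.76, adjusted p = 0.00422) and *Stmn2* (1.96, adjusted p = 0.0367) were called higher in KO and *Syt1* lower (-2.14, adjusted p = 0.0350, all edgeR), while the defining *Rbfox3*, *Snap25* and *Elavl4* were read at most 3 times in every library. That list summed to 9.06 to 13.9 TPM in KO and 1.76 to 3.27 TPM in WT, and its part in the *Cdhr1* values was not tested.

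*Cdh15* (ENSMUSG00000031962, chromosome 8, 122848374 to 122867397, plus strand), M-cadherin, was the most abundant cadherin of the set and was higher in KO. It had 632, 539 and 661 CPM across KO1 to KO3 and 318, 424 and 386 CPM across WT1 to WT3. The lowest KO library (KO2) lay above the highest WT library (WT2), so that the groups did not overlap. The mean was 611 ± 63.9 CPM (SD, n = 3) in KO and 376 ± 54.1 CPM (SD, n = 3) in WT, with a log2 fold change of 0.70 (SE 0.17). The TPM gave the same separation, at 137, 123 and 179 in KO and 76.9, 105 and 85.8 in WT. In CPM, *Cdh15* had the smallest relative spread in KO among cadherins and *Ncam1* alike, with a coefficient of variation of 10.5%. It was 14.4% in WT, where *Cdh2*, *Cdh13*, *Cdhr1* and *Ncam1* varied less. In TPM, *Cdh13* varied relatively less than *Cdh15* in KO. The nearest tested genes, *Acsf3* at 30.5 kb (log2 fold change 0.50, adjusted p = 0.175) and *Ankrd11* at 15.9 kb (0.10, adjusted p = 0.719), were not called by edgeR.

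*Cdh2* (ENSMUSG00000024304, chromosome 18, 16588877 to 16809246, minus strand), N-cadherin, was high in 2 of the 3 KO libraries. It had 336, 125 and 254 CPM across KO1 to KO3 and 113, 115 and 136 CPM across WT1 to WT3. KO1 and KO3 were 2.76 and 2.09 times the WT mean, while KO2 was 1.03 times the WT mean and fell inside the WT range, so that the groups overlapped. The mean was 238 ± 106 CPM (SD, n = 3) in KO and 121 ± 12.9 CPM (SD, n = 3) in WT. The log2 fold change was 0.97 (SE 0.32), and it lay between 0.64 without KO1 and 1.28 without KO2. The TPM showed the same split, with 46.1, 17.9 and 43.4 in KO and 17.1, 17.9 and 19 in WT. *Cdh2* has no tested gene nearby: *Gm10036* lies at 756 kb (log2 fold change -0.50, adjusted p = 0.416, with -0.27 without KO1 and -1.02 without KO2) and the desmosomal cadherin *Dsg3* at 3701 kb (3.12, adjusted p = 0.0542, both edgeR). *Dsg3* was at 6.41 CPM in KO1 and its value was 1.71 without KO1, whereas it was called without KO2, with raw library sizes, without the filter on low counts and with DESeq2 (adjusted p down to 3.21e-07 over the alternatives).

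*Cdh13* (ENSMUSG00000031841, chromosome 8, 118283733 to 119324921, plus strand), T-cadherin, was slightly higher in KO. It had 194, 144 and 147 CPM across KO1 to KO3 and 109, 133 and 122 CPM across WT1 to WT3. The groups did not overlap in CPM, but the gap between KO2 and WT2 was small and KO1 was the only library far from the others. The mean was 161 ± 28.0 CPM (SD, n = 3) in KO and 121 ± 11.9 CPM (SD, n = 3) in WT, with a log2 fold change of 0.41 (SE 0.16) that was 0.26 without KO1. In TPM the groups overlapped, with 31.9, 24.9 and 30.7 in KO and 20, 25.2 and 20.8 in WT. The nearest tested genes, *Mphosph6* at 482 kb (log2 fold change 0.00, adjusted p = 0.990) and *Hsbp1* at 19.6 kb (-0.03, adjusted p = 0.908), were not called by edgeR.

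*Cdh11* (ENSMUSG00000031673, chromosome 8, 102632995 to 102785111, minus strand), OB-cadherin of mesenchymal and osteoblast lineages, went the other way. It was read 579, 1333 and 588 times across WT1 to WT3, 359 times in KO3 and 0 times in KO1 and KO2. In CPM this was 16.7, 40.6 and 15.8 in WT, 8.76 in KO3 and 0 in KO1 and KO2. The genotypes did not overlap, but within KO there were 2 libraries without a read and KO3 at an intermediate level. The lowest WT library was at least 189-fold higher than KO1 and at least 231-fold higher than KO2, against the floor of 3 counts per library, and 1.81-fold higher than KO3. The fitted log2 fold change of -3.06 (SE 1.51) depends on how libraries at 0 are treated and is no bound. The WT libraries also differed 2.56-fold among themselves, with WT2 highest. StringTie listed *Cdh11* at 0, 0 and 1.58 TPM across KO1 to KO3 and 2.73, 6.80 and 2.42 TPM across WT1 to WT3.

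Fibroblast and osteoblast markers were set beside *Cdh11*. Of 8 fibroblast or fibro/adipogenic markers, 6 passed the filter and 4 were called higher in KO by edgeR: *Dpt* (log2 fold change 5.88, adjusted p = 0.00662), *Ly6a* (2.76, adjusted p = 0.00236), *Pi16* (2.45, adjusted p = 0.0171) and *Pdgfra* (1.17, adjusted p = 0.0257). Their list summed to 128, 98.5 and 115 TPM across KO1 to KO3 and 17.8 to 26.5 TPM in WT. The sums were thus higher in the genotype where *Cdh11* was lower. This did not hold throughout KO, where KO2, without a *Cdh11* read, had the lowest sum. Of 6 osteoblast markers, *Alpl* was called higher in KO (4.78, adjusted p = 0.0191) and *Dmp1* lower (-2.11, adjusted p = 0.0137, both edgeR), and the list summed to 31.4, 5.06 and 9.00 TPM across KO1 to KO3 and 5.66 to 6.93 TPM in WT. The part of these markers in the values of the 7 genes was not tested. The nearest tested genes on the chromosome, *Gm8730* at 79.7 kb (log2 fold change -0.77, adjusted p = 0.0789) and *Gm15210* on the other side at 2601 kb (-0.28, adjusted p = 0.592), were not called by edgeR, although *Gm8730* was called without the filter on low counts and with DESeq2 (adjusted p down to 0.0365). The next tested genes outward were named after their values had been seen, and both were called. *Bean1*, at 1385 kb on the side of *Gm8730*, was lower in KO, at 0.476, 0.0916 and 0.244 CPM in KO and 7.17, 11.9 and 5.79 CPM in WT (-4.95, SE 0.56, adjusted p = 0.00227), under all 12 alternatives as well. *Gm24693*, at 3560.4 kb on the side of *Gm15210*, was higher in KO at under 1 CPM in every library (1.72, SE 0.51, adjusted p = 0.0460), a call lost under 8 of 12 alternatives, among them without KO1, KO2 or any WT library, with DESeq2 and without the filter on low counts (adjusted p up to 0.162).

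*Cdh4* (ENSMUSG00000000305, chromosome 2, 179442431 to 179899373, plus strand), R-cadherin, was not detectable at this depth. It was read 0, 1 and 3 times across KO1 to KO3 and 0 times in each WT library. No library exceeded the floor of 3 counts, which corresponds to 0.0687 to 0.0839 CPM in KO and 0.0809 to 0.0914 CPM in WT, and no fold is given. StringTie listed it at 0 TPM in all 6 libraries. Its nearest tested neighbours were both called higher in KO by edgeR, *Taf4a* at 12.8 kb (log2 fold change 0.57, SE 0.14, adjusted p = 0.0278) and *Gm14292* at 265 kb (1.05, SE 0.23, adjusted p = 0.0167). Both calls were lost without WT1 or WT3, and that of *Taf4a* also without KO2, KO3 or WT2, without the filter on low counts and with TPM in place of counts (adjusted p up to 0.125 for *Taf4a* and 0.0858 for *Gm14292*).

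*Ncam1* (ENSMUSG00000039542, chromosome 9, 49502136 to 49798925, minus strand) had the highest level of the set in both genotypes and no common direction. It had 1537, 688 and 1359 CPM across KO1 to KO3 and 1264, 1409 and 1577 CPM across WT1 to WT3. KO1 and KO3 lay inside the WT range, and KO2 was at 0.486 of the WT mean. The mean was 1194 ± 448 CPM (SD, n = 3) in KO and 1417 ± 157 CPM (SD, n = 3) in WT. The log2 fold change of -0.25 (SE 0.30) rested on KO2, without which it was 0.03. In TPM the values were 445, 191 and 435 in KO and 432, 419 and 475 in WT. An annotated gene on the opposite strand inside *Ncam1*, *Gm11149*, was read only 20 to 54 times per library (log2 fold change 0.46, adjusted p = 0.427, edgeR), and whether reads were assigned by strand is not given in the sources used here. The nearest tested gene, *Ttc12* at 15.9 kb, was called lower in KO (-0.91, SE 0.27, adjusted p = 0.0452, edgeR), a call lost without any of KO2, KO3, WT1, WT2 or WT3 (adjusted p up to 0.158). On the other side, *Rpl10-ps3* at 545 kb had a log2 fold change of -0.06 (adjusted p = 0.932).

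Of the 7 genes, 2 (*Cdhr1* and *Cdh15*) passed the adjusted threshold of 0.05 in edgeR, where 22.7% of all genes tested did, 12.1% higher in KO and 10.6% lower. *Cdhr1* passed under all 12 alternatives, whereas *Cdh15* did not pass without KO3, WT1 or WT3, nor with the replicate block. *Cdh2* passed under 4 of the 12, *Cdh11* under 3, *Cdh13* under 1 and *Ncam1* under 0. For *Cdh11* these include the fit without KO3, where the remaining KO libraries are at 0 and no fold is given. KO and WT libraries did not overlap in CPM for 4 (*Cdhr1*, *Cdh15*, *Cdh13* and *Cdh11*), as for 44.3% of all genes tested. Since the genes were chosen with these values known, nothing is read from either count, nor from the settings under which a gene passed. The 3361 genes called became 933 without WT1, 1288 without WT3, 2088 without KO3 and 2100 without WT2. The median log2 fold change relative to all genes, taken over the fixed 10 Mb bin of the chromosome that holds each gene, was 0.37 for *Cdh4*, -0.29 for *Ncam1* and between -0.09 and 0.11 for the other 5. The bins are not centred on the genes. Among the second tested genes outward of *Cdh4* and *Ncam1*, also named after their values had been seen, *4921531C22Rik* was called higher (1.09, adjusted p = 0.0280) and *Plet1os* lower (-1.69, adjusted p = 0.0226, both edgeR), calls lost without any of KO2, KO3, WT1 or WT3 and, for *4921531C22Rik*, WT2 (adjusted p up to 0.127 and 0.105). On the other side, *Zfp931* near *Cdh4* (-0.76, adjusted p = 0.0567) and *Zw10* near *Ncam1* (-0.07, adjusted p = 0.774, both edgeR) were not called, although *Zfp931* was with DESeq2 and without KO2 (adjusted p down to 0.0206).

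Compared per length, the order of levels in WT was *Ncam1* (442 ± 29.2 TPM, SD, n = 3), *Cdh15* (89.3 ± 14.5), *Cdh13* (22 ± 2.78), *Cdh2* (18.0 ± 0.933), *Cdh11* (3.98 ± 2.44), *Cdhr1* (0.0688 ± 0.00972) and *Cdh4* (0). No neighbours in that order overlapped in their ranges over the 3 WT libraries. In KO the order was *Ncam1* (357 ± 144 TPM, SD, n = 3), *Cdh15* (146 ± 29.1), *Cdh2* (35.8 ± 15.5), *Cdh13* (29.2 ± 3.73), *Cdhr1* (8.88 ± 3.47), *Cdh11* (0.528 ± 0.914) and *Cdh4* (0). There the ranges of *Cdh2* and *Cdh13* overlapped, as did those of *Cdh11* and *Cdh4*. *Cdhr1* and *Cdh11* exchanged places, with *Cdhr1* above *Cdh11* in all 3 KO libraries and below it in all 3 WT libraries.

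**Figure D3:**
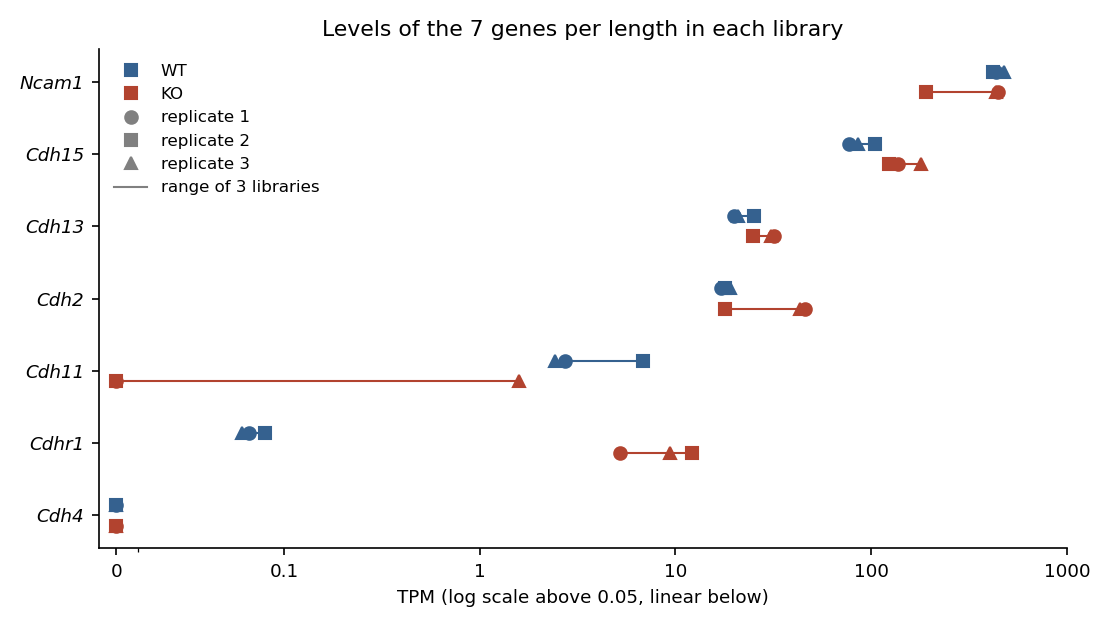
TPM of the 7 genes in each library on a log axis that is linear below 0.05 TPM, WT in blue and KO in red, with a line over the range of the 3 libraries. *Cdh11* and *Cdhr1* exchange order between the genotypes, and *Ncam1* and *Cdh15* are the highest in both.

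The summed RNA of the 6 cadherin genes of this set was higher in KO, and *Cdh15* made up most of it in both genotypes. The set was chosen with these levels known, and other genes of the cadherin family are not in the sum. The 6 cadherin genes summed to 221 ± 43.0 TPM (SD, n = 3) in KO and 133 ± 19.7 TPM (SD, n = 3) in WT. *Cdh15* made up 62.2%, 69.1% and 67.8% of that sum across KO1 to KO3 and 65.8%, 67.8% and 67.0% across WT1 to WT3, so that its share overlapped between genotypes while its level did not. *Cdhr1* took 2.36%, 6.78% and 3.55% across KO1 to KO3 and at most 0.0564% in WT. The share of *Cdh13* was lower in every KO library (11.6% to 14.5%) than in every WT library (16.2% to 17.1%), although its level was not. The ratio of *Cdh15* to *Cdh2*, the M- and N-cadherin RNAs, was 2.97, 6.86 and 4.12 in KO and 4.49, 5.87 and 4.51 in WT, with KO1 lowest and KO2 highest.

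**Figure D4:**
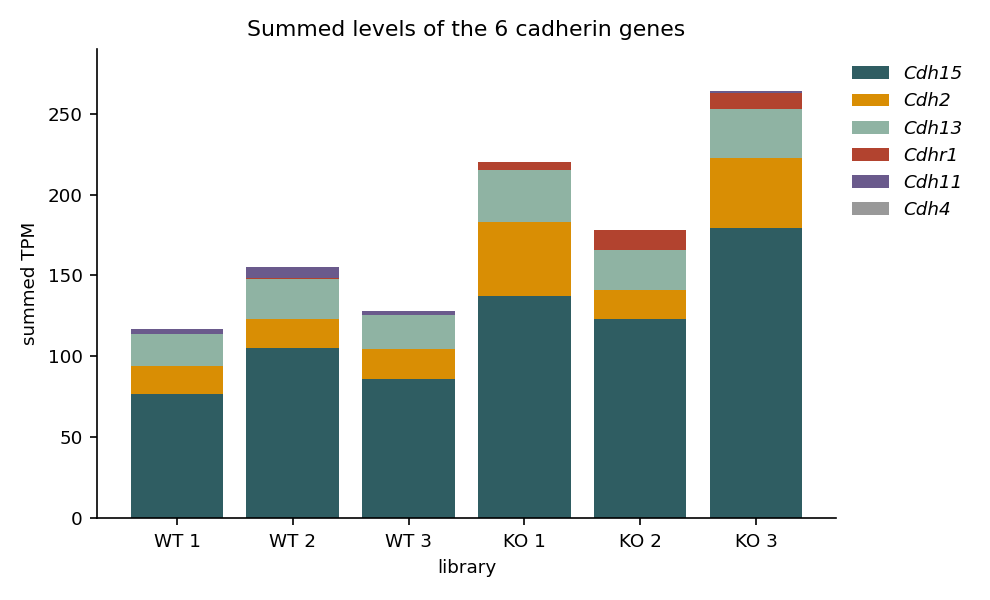
Summed TPM of the 6 cadherin genes in each library, stacked by gene on a linear axis from 0. The KO columns are taller (178 to 264 TPM) than the WT columns (117 to 155 TPM), *Cdh15* fills most of each, and *Cdhr1* is visible in KO only.

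The KO libraries fell in different orders for different genes. *Cdhr1* was highest in KO2 and lowest in KO1, whereas *Cdh2*, *Cdh13* and *Ncam1* were highest in KO1 and lowest in KO2, and *Cdh15* and *Cdh11* were highest in KO3. As a description over the 6 libraries, the gene most like *Cdhr1* in log2 CPM among 10755 genes was *Mmp23* (Pearson's r = 0.9995), at 6.27, 9.62 and 7.06 CPM in KO and 0.108 to 0.122 CPM in WT, followed by *Pole2* (r = 0.9995). For *Cdh15* they were *Hectd2* (r = 0.9977) and *Tmem104* (r = 0.9947), for *Cdh2* *Atg9b* (r = 0.9913) and *Trmt1l* (r = 0.9900), and for *Cdh13* *Ap4s1* (r = 0.9883) and *Mks1* (r = 0.9849). For *Cdh11* they were *D16Ertd472e* (r = 0.9979) and *Wwp1* (r = 0.9967), and for *Ncam1* *Otog* (r = 0.9943) and *Myadm* (r = 0.9929). These are the best matches picked from many genes over 6 points that share their libraries. Genes with predicted-gene symbols (Gm with digits, or Rik) were left out of the search, so that *2610528A11Rik* was not compared.

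Partners of these proteins, other cadherins and protocadherins, and repressors and proteases of cadherins were then counted in 6 lists. These held 109 genes in all, of which 68 were tested, and are called partner lists and partner genes below. In all lists together 13 were called higher and 11 lower in KO by edgeR, that is 35.3% of those tested beside 22.7% of all genes, and their median log2 fold change was 0.04 beside 0.03 over all genes. The 24 calls became 7 without WT1, 9 without WT3 and 15 without KO3. The lists were chosen with earlier results of these data known, so nothing is read from these shares.

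Of 20 genes of catenins and other partners at the adherens junction, 17 were tested, 4 were called higher and 5 lower, with a median log2 fold change of -0.13. β-Catenin (*Ctnnb1*), which binds the classical tail, had 451, 546 and 456 CPM in KO and 426, 536 and 424 CPM in WT (log2 fold change 0.07, SE 0.17, adjusted p = 0.792), and αE-catenin (*Ctnna1*) had a log2 fold change of 0.48 (SE 0.20, adjusted p = 0.119), which was 0.27 without KO1 and was called with raw library sizes (adjusted p = 0.0498). Plakoglobin (*Jup*), which binds at the same site as β-catenin, rose from 43.7, 39.9 and 44.8 CPM in WT to 132, 133 and 157 CPM in KO (log2 fold change 1.72, SE 0.13, adjusted p = 5.76e-04). It remained called under all 12 alternatives (adjusted p from 2.83e-20 to 0.00715). The p120 family members *Arvcf* (1.87, adjusted p = 0.0245) and *Ctnnd1*, p120 catenin itself (0.66, adjusted p = 0.0266), also rose, whereas their relative *Pkp4* fell (-1.27, adjusted p = 0.00374). *Arvcf* was 1.26 without KO2. *Ctnna3*, αT-catenin, was read 0 times in every KO library and was at 1.97, 1.43 and 2.45 CPM across WT1 to WT3 (adjusted p = 0.00216, edgeR). Its WT mean of 1.95 CPM was 25.9-fold the mean KO floor of 3 counts per library (0.0753 CPM). This is a ratio of means, whereas the bounds for *Cdh11* used the lowest WT library.

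Of the phosphatases in the same list, the receptor types *Ptprm* (-1.33, adjusted p = 0.00227) and *Ptprk* (-1.04, adjusted p = 0.0139), which bind like to like between cells, fell, and the intracellular *Ptpn1* rose (0.82, adjusted p = 0.0216, all edgeR). The calls of *Ctnnd1* and *Ptpn1* were lost without any of KO3, WT1, WT2 or WT3 and that of *Ctnnd1* also with TPM in place of counts, that of *Arvcf* without any WT library and that of *Ptprk* without WT1 or WT3, with adjusted p up to 0.118, 0.0935, 0.0858 and 0.0537.

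Of 14 genes of promyogenic signalling linked to cadherins, all were tested, 0 were called higher and 1 lower, with a median log2 fold change of -0.17. The cadherin-associated co-receptors *Cdon* (-0.50, SE 0.31, adjusted p = 0.268), *Boc* (-0.52, SE 0.30, adjusted p = 0.238) and *Neo1* (-0.47, SE 0.19, adjusted p = 0.110) were not called by edgeR. *Cdon* and *Boc* overlapped between the genotypes, and *Neo1* did not. Without KO1 *Neo1* was called (-0.63, adjusted p = 0.0279), and without KO2 it was -0.28. *Cdon* lay between -0.16 without WT2 and -0.70 without KO3, and *Boc* between -0.25 without KO1 and -0.83 without KO3. The gene called lower was *Mapk14*, the p38α kinase (-0.62, SE 0.15, adjusted p = 0.0269), a call lost without KO3, WT1 or WT3 (adjusted p up to 0.119).

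Of 14 genes of NCAM partners and of its polysialylation, 9 were tested, 3 were called higher and 1 lower, with a median log2 fold change of 0.26. The polysialyltransferase *St8sia2* was at 3.13, 0.664 and 13.8 CPM in KO and 0.810, 0.274 and 0.0539 CPM in WT, so that KO2 fell below WT1 although edgeR called it (log2 fold change 3.95, SE 1.19, adjusted p = 0.0482). Without KO3 the value was 2.32, and the call was lost without KO3 or any WT library (adjusted p up to 0.155). The other polysialyltransferase *St8sia4* (-1.34, SE 0.92, adjusted p = 0.318) and the NCAM-binding receptor *Fgfr1* (0.26, SE 0.14, adjusted p = 0.195; 0.14 without KO1) were not called. *St8sia4* lay between -0.66 without WT3 and -3.09 without KO1, where it was called (adjusted p = 0.0295). *Gfra1*, the GDNF co-receptor that can act with NCAM, rose (1.58, adjusted p = 0.0409), as did the phosphatase *Ptpra* (0.71, adjusted p = 0.0116), and the kinase *Fyn* fell (-0.72, adjusted p = 0.0245). *Gfra1* was 0.92 without KO2 and its call and that of *Fyn* were lost on leaving out any library but KO1, and that of *Ptpra* without WT1 or WT3 (adjusted p up to 0.115, 0.0786 and 0.0755).

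Of 34 other cadherin, desmosomal and related genes, 10 were tested, with a median log2 fold change of 0.34, and 16 were read at most 3 times in every library. *Cdh1* (E-cadherin), the epithelial type, was read 79 times in KO1 and at most 6 times elsewhere, and *Cdh5* (VE-cadherin), the endothelial type, at most 11 times, and neither was tested. In this list *Cdh17* (2.06, adjusted p = 0.00811) and *Clstn3* (1.45, adjusted p = 0.0186) were called higher and *Celsr3* lower (-3.25, adjusted p = 0.0260, all edgeR), at levels of at most 1.90 CPM for the first pair and 7.32 CPM for *Celsr3*. All 3 calls were lost without WT1 (adjusted p up to 0.0967), those of *Clstn3* and *Celsr3* also without WT3 and that of *Celsr3* without KO3. The value of *Celsr3* lay between -2.73 without KO2 and -4.38 without KO1. Of 12 non-clustered protocadherins, 5 were tested (median log2 fold change -1.34), with *Pcdh1* (2.19, adjusted p = 0.0337) and *Pcdh19* (0.94, adjusted p = 0.0141) called higher and *Pcdh15* lower (-4.08, adjusted p = 0.00912). *Pcdh1* was at 119 CPM in KO1 and 21.6 and 31.3 CPM in KO2 and KO3 against 11.8 to 13.5 CPM in WT, and its value was 1.07 without KO1. The call of *Pcdh1* was lost without any WT library and that of *Pcdh19* without WT1 or WT3 or with TPM in place of counts (adjusted p up to 0.120 and 0.0742). *Pcdh7*, named after its values had been seen, was at 40.3, 46.9 and 48.5 CPM in WT and 17.7, 0.0916 and 0.146 CPM in KO1, KO2 and KO3, which did not overlap, but it was not called (log2 fold change -2.93, SE 1.42, adjusted p = 0.166).

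Of 15 transcriptional repressors of cadherins and proteases that shed them, 13 were tested, 2 were called higher and 2 lower, with a median log2 fold change of 0.26. The membrane protease *Mmp14* rose from 163, 210.2 and 187 CPM in WT to 405, 386 and 504 CPM in KO (log2 fold change 1.21, SE 0.17, adjusted p = 0.00426). The repressor *Snai1* (0.60, adjusted p = 0.0469) was also called higher, and the repressors *Zeb1* (-0.74, adjusted p = 0.0157) and *Snai3* (-2.29, adjusted p = 0.00874) lower. The call of *Snai1* was lost on leaving out any library, with RLE size factors in place of TMM, without the filter on low counts and with TPM in place of counts, and that of *Zeb1* without WT1 (adjusted p up to 0.180 and 0.0510).

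**Figure D5:**
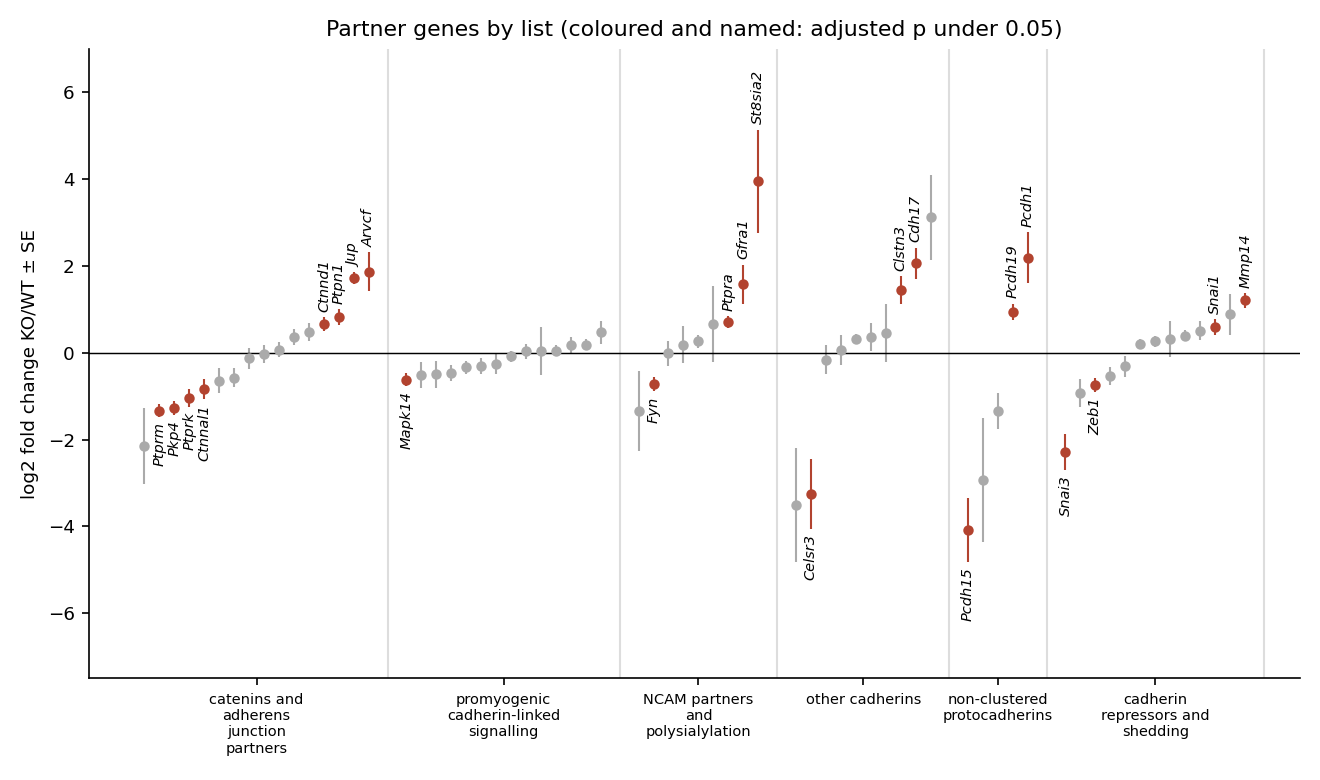
Log2 fold change of KO over WT (bars of ± SE) for the tested genes of the 6 partner lists, with genes called by edgeR at an adjusted p under 0.05 in red and named, and the others in grey. *Ctnna3*, at 0 reads in KO, is left out. *Jup* stands at 1.72 with a short bar, while the promyogenic list has a single coloured point, *Mapk14* at -0.62.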

How the data were processed

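RNA-seq counts per gene were deposited by the authors for 3 KO and 3 WT libraries, as raw counts without normalization, and all 6 columns were used with 0 left unused. TPM values, normalized within each library by the authors with StringTie, were deposited for each library. The submitters' processing notes name FastQC, Trim Galore, STAR, featureCounts and StringTie, without versions or annotation release. The methods name build GRCm39 and the notes mm9, but the deposited gene coordinates fit GRCm38, which is used here.

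The 7 genes, the partner lists and the marker lists were chosen with earlier results of these data known. Counts were scaled by TMM (factors 0.949 to 1.08), filtered with filterByExpr and fitted with edgeR 4.0.16 (R 4.3.3) on genotype alone, with a two-sided quasi-likelihood test and Benjamini-Hochberg adjustment over all 14828 genes at a threshold of 0.05. An unadjusted p was under 0.05 for 5781 genes. The SE is the size of the log2 fold change over the square root of F. TPM were fitted with limma 3.58.1 on log2(TPM + 1), for genes that reached a TPM of 1 in at least 3 libraries, and DESeq2 1.42.0 was an alternative. The steps were tested on simulated data. The floor of a library was 3 counts and covers counting error only. No library repeated another (chi-square per degree of freedom 46.6 to 171 within genotypes).

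Named genes were the 7 genes, fixed catenins, co-receptors, polysialyltransferases, *Fgfr1*, *Cdh1* and *Cdh5*, up to 4 of the highest and 4 of the lowest calls in each list, tested genes overlapping a member, the nearest tested gene on each side, and the 2 genes most like each member (mean log2 CPM of at least 1, prior count 0.5). For 6 list genes an older symbol was used, and a further list gene is not reported here. Alternatives changed the scaling, filter, tool, input, pseudocount (0.1), replicate block and libraries. Those for neighbouring genes and for *Hnrnpa2b1* were added after seeing the data. Sequences are from RefSeq.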

Additional observations from a re-analysis of the deposited data

How the results depend on the processing

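Of the values of the 6 fitted genes under the alternatives, 117 differed from the reported value by less than 1 SD between replicates and 4 by more, and no gene past the threshold changed direction. *Cdhr1* was 3.14 in limma on log2(TPM + 1), a scale that compresses low genes, and 5.65 on log2(TPM + 0.1). *Cdh11* was -1.76 on log2(TPM + 1), -3.84 on log2(TPM + 0.1) and -5.59 with the replicate block, and the cause was not tested. Leaving out each library in turn, the log2 fold changes ranged from 6.64 to 7.21 for *Cdhr1*, 0.58 to 0.79 for *Cdh15*, 0.64 to 1.28 for *Cdh2*, 0.26 to 0.49 for *Cdh13*, -3.31 to -2.45 for *Cdh11* and -0.48 to 0.03 for *Ncam1*, and only *Ncam1* changed sign. No log2 fold change is given for *Cdh4*, or for *Cdh11* without KO3, where every remaining KO library is at 0. Nor is one given for *Cdhr1* in TPM without a KO library, where it did not pass the filter.

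Genes called numbered 933 to 4712 with each library left out, and partner genes called 7 to 34. With other scalings, no filter, DESeq2 or TPM, the partner genes called numbered 18 to 34. Same-numbered KO and WT libraries correlated at 0.163, -0.122 and -0.05 in their deviations from the group means. Differently numbered ones correlated at -0.377 (KO3 and WT1) to 0.326 (KO3 and WT2). No pairing by replicate number was seen, but 3 libraries per group cannot exclude it. With the replicate block, 2520 genes and 18 partner genes were called, and the calls of *Ctnnd1*, *St8sia2*, *Arvcf*, *Gfra1*, *Pcdh1*, *Snai1*, *Rgr*, *Taf4a*, *Gm24693* and *4921531C22Rik* were lost. *Dsg3* was called with the block. *Cdh4*, *Rgr* and most other cadherins were read a few times or not at all, so that small differences in them were not detectable.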
